A study of Homo sapiens with 3 samples.

Results

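Accessible chromatin was examined around the genes for CTCF and cohesin, the machinery that folds the genome into loops. The 10 genes were CTCF itself, the cohesin subunits SMC1A, SMC3, RAD21, STAG1 and STAG2, the loader NIPBL, the release factor WAPL and the regulators PDS5A and PDS5B. An interval of the authors' list of accessible regions was assigned to a gene when a summit, the position of a local maximum of signal, lay inside the RefSeq GRCh38 gene body or within 50 kb of its outer ends. This rule gave 45 of the 65234 distinct intervals in the list, carrying 123 of 145092 summit entries. The 10 windows did not overlap.

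KOLF2.1J is a widely used human iPSC line, and the cells studied were neurons derived from it with NGN2, a transcription factor that drives neuronal fate, and taken after 14 days of differentiation. ATAC-seq, in which the Tn5 transposase inserts adapters into accessible DNA, was run on 3 biological replicates of this single group. There was no other genotype, treatment or time. The submitters combined the replicates into 1 list with no value per replicate, so no spread between replicates can be given and no test between samples was possible. In a pool of cells, a site open in fewer cells and a site less open in each cell cannot be told apart. Of the neuronal marker genes with a listed start, 5 of 6 had an interval there (MAP2, RBFOX3, SYN1, DCX and SYT1). TUBB3 had one at another of its listed starts. Among all protein-coding genes with a listed start, 68.4% had an interval there, so the marker count alone says little about cell type. SOX2 and NES, genes of neural progenitors, also had one, at fold enrichments of 5.08 and 3.96. Of the 2 glutamatergic markers SLC17A6 had one, at 4.27, and SLC17A7 did not, nor did NANOG or any of the 3 genes of non-neural tissue with a listed start (ALB, INS and MYH6). AQP4, the 1 glial marker with a listed start, had one at 2.83, and PAX6, a progenitor gene, had one only at another of its listed starts.

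Cohesin is a ring of SMC1A, SMC3 and RAD21, to which either STAG1 or STAG2 binds. NIPBL helps cohesin load and extrude DNA loops, CTCF bound to DNA halts the extruding ring, and WAPL, acting with PDS5A or PDS5B, releases cohesin from chromatin. Cohesin also holds sister chromatids together in dividing cells, but neurons no longer divide, and there the complex is known for its part in enhancer and promoter contacts. Mutations in NIPBL, SMC1A, SMC3 and RAD21 are known causes of Cornelia de Lange syndrome, a developmental disorder.

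Promoter sequences from RefSeq (GRCh38.p14), running from 250 bases before to 50 bases after a start, were found by symbol for 9 of the 10 genes, RAD21 having no entry. The 250 bases before the start are shown for STAG1, whose start interval held the most tags of the 10, for WAPL and NIPBL, whose start intervals had the highest and the lowest fold enrichment, and for CTCF. Each reads 5′ to 3′ on the strand of the gene, which is minus for STAG1 and WAPL and plus for NIPBL and CTCF. Capitals mark matches to the words searched, and where words overlap the capitals run together.
STAG1, chr3:136752379-136752628: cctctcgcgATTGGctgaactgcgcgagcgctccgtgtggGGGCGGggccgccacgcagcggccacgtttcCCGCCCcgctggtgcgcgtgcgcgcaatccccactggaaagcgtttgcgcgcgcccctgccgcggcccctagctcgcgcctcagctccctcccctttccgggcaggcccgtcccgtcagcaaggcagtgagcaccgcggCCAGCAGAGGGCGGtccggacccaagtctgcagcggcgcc
WAPL, chr10:86521793-86522042: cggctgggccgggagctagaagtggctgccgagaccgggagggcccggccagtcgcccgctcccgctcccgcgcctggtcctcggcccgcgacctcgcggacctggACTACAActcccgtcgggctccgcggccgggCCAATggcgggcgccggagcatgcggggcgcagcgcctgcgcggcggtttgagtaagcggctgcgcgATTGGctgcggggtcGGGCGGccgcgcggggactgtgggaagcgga
NIPBL, chr5:36876519-36876768: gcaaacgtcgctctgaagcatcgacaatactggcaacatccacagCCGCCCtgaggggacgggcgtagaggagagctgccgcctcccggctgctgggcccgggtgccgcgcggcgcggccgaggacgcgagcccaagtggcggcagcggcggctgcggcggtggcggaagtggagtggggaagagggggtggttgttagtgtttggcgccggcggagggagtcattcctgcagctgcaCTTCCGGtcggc
CTCF, chr16:67562276-67562525: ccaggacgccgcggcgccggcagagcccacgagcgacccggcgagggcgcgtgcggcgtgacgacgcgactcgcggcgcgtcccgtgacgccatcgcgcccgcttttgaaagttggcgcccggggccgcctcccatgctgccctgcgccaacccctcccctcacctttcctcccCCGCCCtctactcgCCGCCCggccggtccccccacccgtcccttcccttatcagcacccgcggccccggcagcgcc

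The words were searched on both strands over all 300 bases and at the first listed start of each gene. They were GGGCGG (SP/KLF factors), CCAAT (NFY), CCGGAAG (ETS factors), AANATGGC (YY1), ACTACAA (ZNF143), GCATGCGC (NRF1), TGACGT (CRE) and the core consensus of CTCF. All 9 promoters held GGGCGG, as did 58.3% of the promoters of all 15842 protein-coding genes with a listed start and 72.1% of those with an interval at the start. CCAAT was present in 5 of the 9 (36.4% of all), AANATGGC in CTCF, SMC3 and PDS5B (7.92%) and CCGGAAG in NIPBL and SMC1A (14.2%). ACTACAA was found in WAPL alone (3.13%). The NRF1 and CRE words were in none of the 9, against 4.28% and 9.66% of all promoters. The core consensus of CTCF occurred in 81 of the 15842 promoters (0.511%), and among the 9 genes in STAG1 alone, with 2 matches on the strand of the gene. Only 2 of the 15842 promoters held 2 or more matches, and STAG1 was one of these. The matches are shown in capitals with their flanks, the first at 40 to 29 bases before the start, where it overlaps a GGGCGG word, and the second at 18 to 29 bases after the start base.
STAG1, chr3:136752401-136752424: ccgcggCCAGCAGAGGGCggtccg
STAG1, chr3:136752343-136752366: aaaatgCCACCAGATGGCgggtta
A match describes letters only. Whether CTCF was bound there was not measured in these data. The promoters of the 9 genes had a median GC content of 71.3% and a median of 37 CpG dinucleotides, against 65.7% and 27 for the protein-coding genes with an interval at the start. SMC3 and SMC1A were the lowest of the 9, with 56.0% and 61.0% GC, and WAPL the highest with 76.3%.

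All 10 genes had an accessible interval at the start, that is, one whose strongest summit lay within 1 kb of the annotated start (for RAD21, of an outer end of the gene). The background is high, since 68.4% of the 15842 protein-coding genes with a listed start met the same criterion (10843 genes). Strength was read in 2 ways. Fold enrichment is the authors' ratio of the signal at the summit to a local background. The tag count, the number of sequenced tags piled up at the summit, was computed back from the deposited fold enrichment and p, and its 95% Poisson interval covers counting error only. The depth of each library is not given in the list.

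By tags, all 10 start intervals lay above 994, the median of the 10843 genes with a start interval, and 6 of the 10 were above percentile 75. The counting intervals of STAG2 (937 to 1062) and NIPBL (951 to 1076) include 994, so these were not separated from that median. The median of the 10 was 1544 tags, with a range of 998 to 3561. By fold enrichment they were close to other genes, with a median of 12.02 (range 6.67 to 16.8) against 10.96, which is 0.13 higher in log2 terms. Of the 10, 6 were above that median. The difference in tags was 0.64 on the log2 scale. The local backgrounds beneath the start intervals were also higher, with a median of 139.8 tags against 88.1. A background includes the tags of the interval itself, so this is not independent of the difference in tags.

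**Figure D1:**
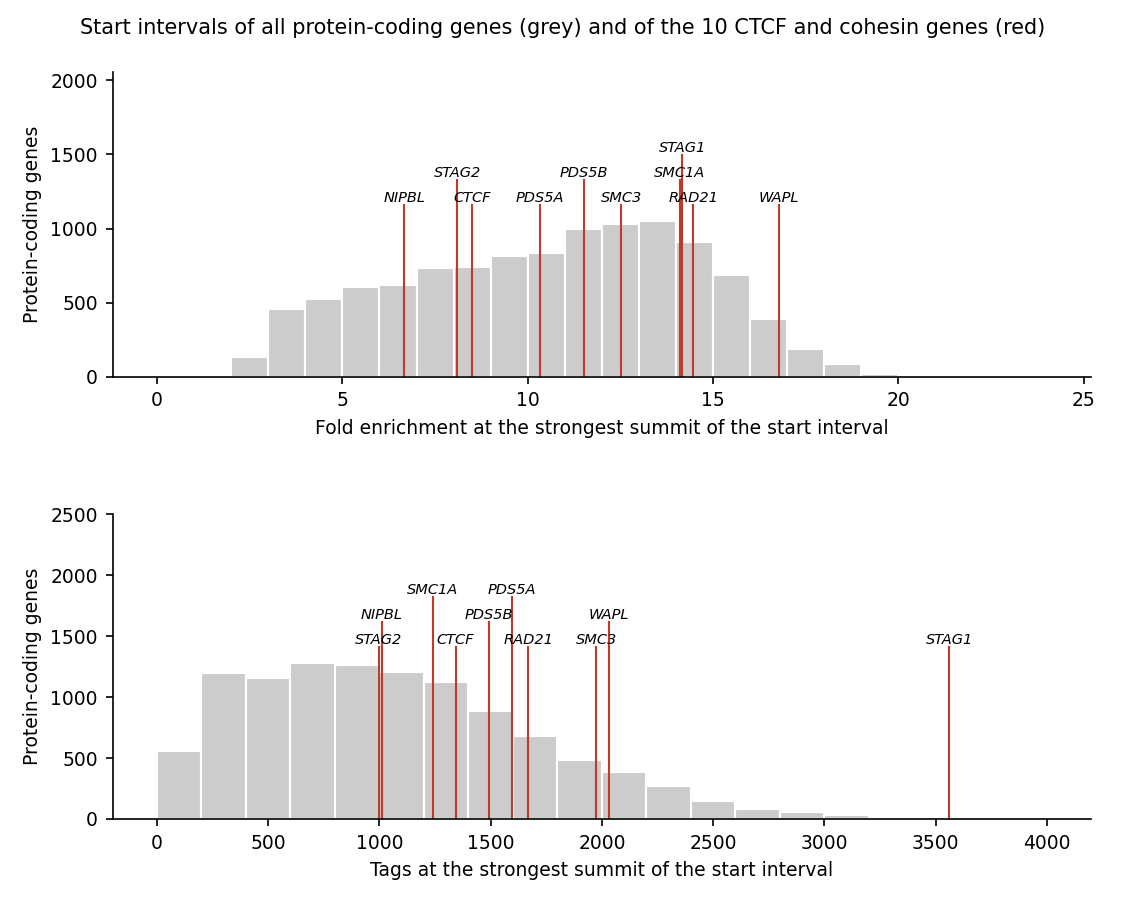
Fold enrichment (upper panel) and tags (lower panel) at the strongest summit of the start interval, in protein-coding genes with such an interval (grey bars, number of genes per bin) and in the 10 CTCF and cohesin genes (red lines, whose height carries no value). The genes spread from 6.67 to 16.8 in fold enrichment, whereas by tags none lies below 998 and STAG1 stands apart at 3561.

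STAG1, one of the interchangeable subunits that bind the ring, had the start with the most tags. Its interval (chr3:136751395-136753240) held 3561 tags at the summit (95% interval 3445 to 3680), the fifth highest of all 65234 intervals (rank 5), and its −log10 p of 2672 was rank 2 in the list. This was percentile 99.96 by tags among start intervals, but percentile 80.6 by fold enrichment, at 14.2, over a background of 250.3 tags that was the highest of the 10. STAG2, the other form of the subunit, was the lowest of the 10 by tags. Its start interval (chrX:123959645-123960656) had 998 tags (937 to 1062) and a fold enrichment of 8.10, at percentiles 50.3 and 29.1. The counting intervals of STAG1 and STAG2 do not overlap. STAG2 and SMC1A lie on the X chromosome, whose number of copies, and of active copies, per cell was not analysed here. Tags were not adjusted for copies. A lower count at these genes than at genes on other chromosomes thus cannot be read as lower accessibility of each copy.

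The ring subunits were all above the medians of protein-coding start intervals by both tags and fold enrichment, as were STAG1, WAPL and PDS5B. SMC3, the partner of SMC1A in the ring, had 1974 tags (1888 to 2063) and a fold enrichment of 12.5 at chr10:110566892-110568631. RAD21, which closes the ring and is cut when sister chromatids part, had 1669 tags (1590 to 1751) and a fold enrichment of 14.5 at chr8:116874070-116875333. SMC1A had 1239 tags (1171 to 1310) and a fold enrichment of 14.1 at chrX:53421919-53423317. The 3 genes thus kept a narrow range in fold enrichment, 12.5 to 14.5, while tags fell from SMC3 to RAD21 to SMC1A with no overlap of their counting intervals. SMC1A is the one on the X chromosome, and tags were not adjusted for copies.

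WAPL had the highest fold enrichment of the 10, at 16.8 (chr10:86521210-86522569), percentile 96.4, with 2030 tags (1943 to 2120). PDS5A and PDS5B, related proteins that act with WAPL, were alike by tags, with 1596 (1519 to 1676) at chr4:39976470-39978392 and 1492 (1417 to 1570) at chr13:32585946-32587415. Their fold enrichments were 10.3 and 11.5. NIPBL had the lowest fold enrichment, at 6.67 (chr5:36875749-36877685), percentile 19.7, with 1012 tags (951 to 1076). The release factor and the loader were thus at opposite ends of the 10 by fold enrichment. CTCF, the DNA-binding partner, had 1342 tags (1271 to 1416) and a fold enrichment of 8.51 at chr16:67561803-67563631, percentiles 68.8 and 31.8.

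From low to high by tags the order was STAG2, NIPBL, SMC1A, CTCF, PDS5B, PDS5A, RAD21, SMC3, WAPL and STAG1. The counting intervals overlapped for STAG2 with NIPBL, SMC1A with CTCF, PDS5B with PDS5A, PDS5A with RAD21 and SMC3 with WAPL, so these neighbours were not separated at this depth. The order by fold enrichment was related but not the same (Spearman's rho 0.78 and Pearson's r 0.57 over 10 genes, as a description, since both measures share the tags of the summit). Over the 10843 genes the same rho was 0.68.

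The start intervals were wide and had several summits. Their median width was 1605 bp (range 1012 to 1937), against 1323 bp for all protein-coding genes with a start interval, and their median number of summits was 4 (range 3 to 6), against 3. None of the 10 had a single summit. Over all 10843 start intervals the first quartile was 2 summits, so most of those had several as well. The strongest summit lay upstream of the start in all 10 genes, where 76.4% of the 10843 genes had it upstream. The distance was 26 bp in SMC1A, 29 in SMC3, 54 in PDS5B, 56 in PDS5A, 60 in NIPBL, 72 in WAPL and 100 in CTCF. It was 162 bp in STAG2, 191 in RAD21 and 253 in STAG1. The 2 CTCF words of STAG1 lie between its summits at -92 and 267 bp, downstream of the strongest one. In STAG2, all 3 summits of the start interval were upstream, and a separate interval (chrX:123960729-123962068), with 509 tags and a fold enrichment of 4.11, began inside the gene. Its strongest summit was 1008 bp from the first start, just beyond the limit of 1 kb, and STAG2 has 3 listed starts.

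**Figure D2:**
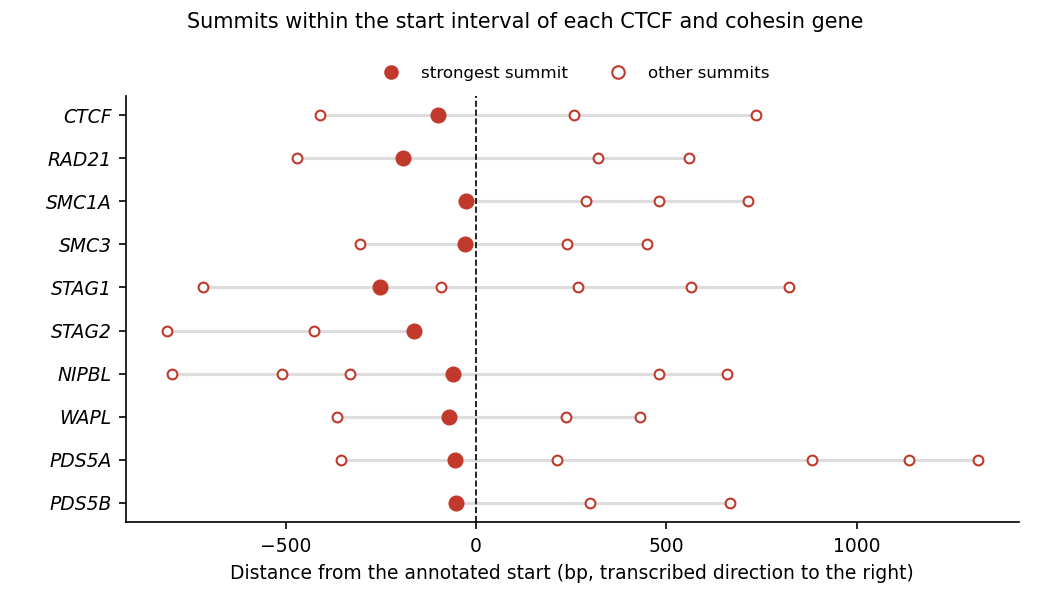
Position of every summit of the start interval of each gene relative to the annotated start (bp, transcribed direction to the right), with the strongest summit filled. All 10 filled points lie left of the start, from 26 bp in SMC1A to 253 bp in STAG1.

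Nearly all of these starts lay close to an end of another gene, whatever its direction. The end of another annotated gene lay within 1 kb of the strongest summit in 9 of the 10, where 42.5% of the 10843 genes with a start interval had one. The neighbours were CTCF-DT, STAG1-DT, NIPBL-DT, WAPL-DT and PDS5B-DT, which are named as divergent transcripts, the antisense genes RAD21-AS1 and STAG2-AS1, LOC105378483 beside SMC3 and the protein-coding gene RIBC1 beside SMC1A. MIR3610 also ends there beside RAD21. PDS5A was the exception. ATAC-seq has no strand, so the signal of a shared interval cannot be divided between such neighbours.

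Away from the starts the windows were sparse. Of the 45 intervals, 10 were at the starts, 8 lay within 1 kb of an end of another annotated gene and 27 were distal, that is, more than 1 kb from either end of any annotated gene. Each of the 10 genes had at least 1 distal interval, as did 83.6% of the protein-coding genes with a listed start. The median was 2.5 per gene (range 1 to 5), against 2 for all such genes, which are shorter, with a median length of 25.6 kb against 114.3 kb. This order turned when distal was set from protein-coding ends only (2.5 against 3), from the start of the gene alone (3.5 against 4) or by summit entries (3 against 4). The medians were equal, at 2, with a start radius of 2 kb, a score of at least 830 or only intervals beyond 5 kb of the start. Per 100 kb of window the median was 1.00 for the 10 genes and 1.63 for all. Against protein-coding genes within 20% of the same length, 7 of the 10 genes had fewer distal intervals than the median and 3 had more.

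**Figure D3:**
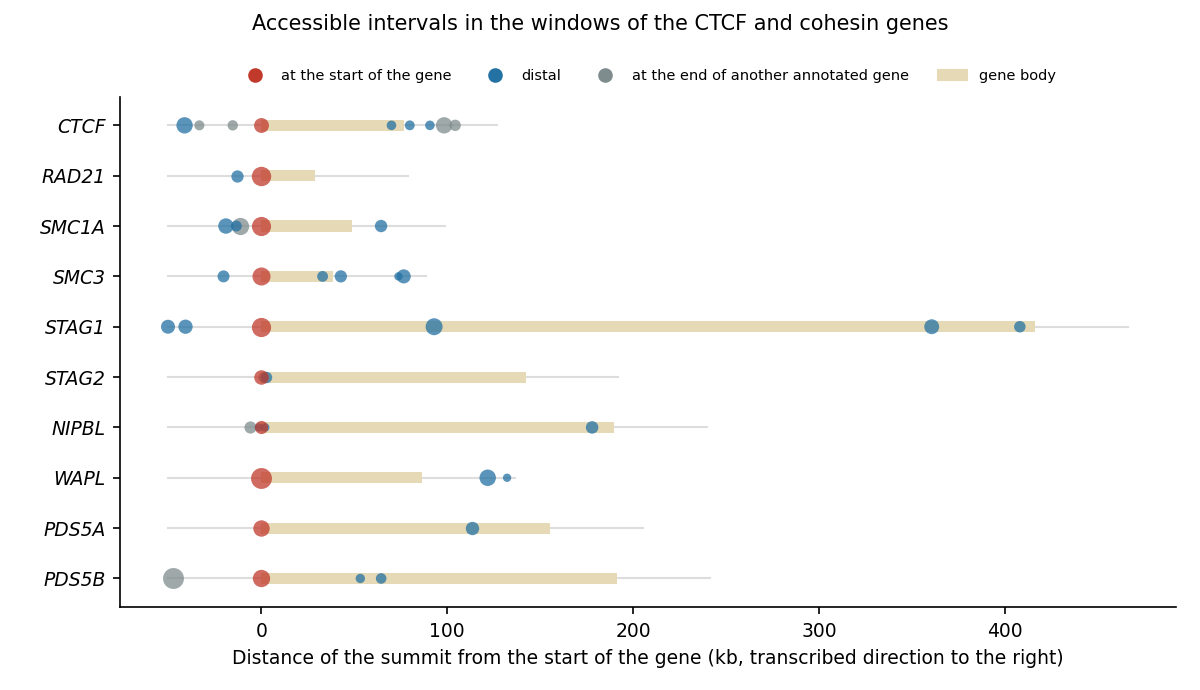
Intervals in the window of each gene, by the distance of the strongest summit from the start (kb, transcribed direction to the right, for RAD21 from the outer end that holds an interval). The area of a point is proportional to fold enrichment, and colour marks start, distal and other gene-end intervals. The bodies of the 5 longest genes, STAG1, PDS5B, NIPBL, PDS5A and STAG2, have long stretches with no point.

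Among genes of similar length, the 5 longest genes had the lowest percentiles of the 10. STAG1, of 416.1 kb, had 5 distal intervals where 273 genes of similar length had a median of 10 (percentile 16.5), and a stretch of 266.8 kb without any interval. PDS5A (155.0 kb) had 1 where the median was 4 (percentile 7.59), and PDS5B (191.6 kb) had 2 where it was 5 (percentile 12.5). STAG2 (142.1 kb) also had 1 where the median was 4 (percentile 9.04), and that one lay 2.63 kb from the start. All 3 intervals of STAG2 fell around the start, and the 189.3 kb from the last of them to the far edge of the window held none. NIPBL (189.6 kb) had 3 where the median was 5 (percentile 22.8), and a stretch of 175.2 kb without an interval.

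The shorter genes were mixed. WAPL (86.5 kb) had 2 where the median of similar genes was 3, and RAD21 (28.8 kb) had 1 where it was 2. CTCF (76.7 kb) had 4 against 3 and SMC1A (48.6 kb) 3 against 2. SMC3 (38.4 kb) stood highest, with 5 against 2, at percentile 89.2 of 1619 genes. Of the 5 distal intervals of SMC3 only 1 was inside the gene. These counts depend on the window. Within 20 kb SMC3 had 2, STAG1 3 and WAPL 0, and within 100 kb SMC1A had 10, SMC3 and CTCF 7 each, WAPL 5 and RAD21 3.

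**Figure D4:**
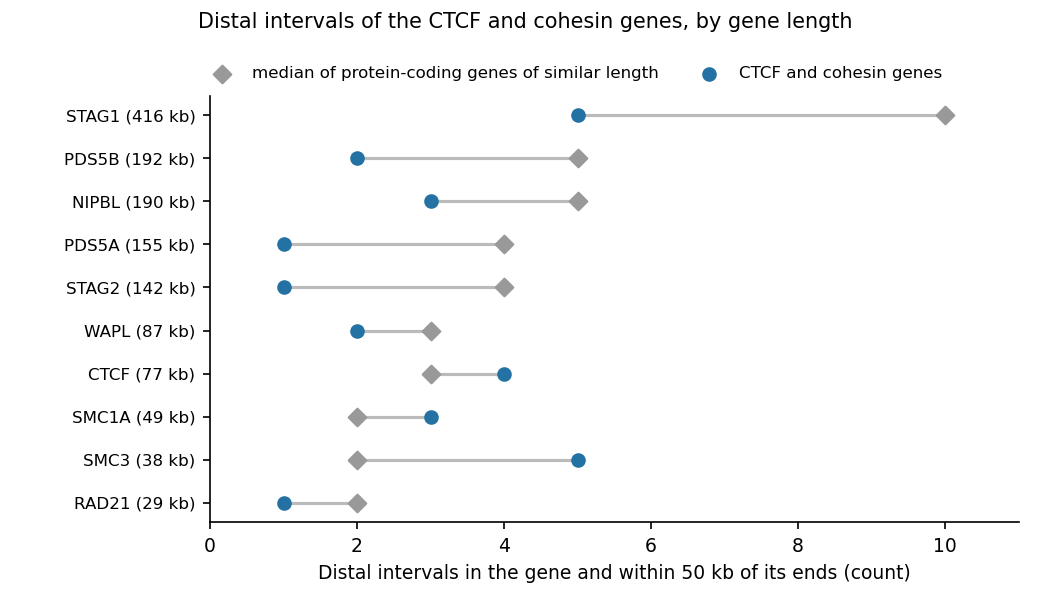
Number of distal intervals in the gene and within 50 kb of its ends for each of the 10 genes (blue), with the median of protein-coding genes within 20% of the same length (grey diamonds). The 5 longest genes, WAPL and RAD21 lie left of their diamond, and SMC3, SMC1A and CTCF lie right of it.

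Distal intervals were weaker than the starts and looked like distal intervals elsewhere. Their median was 207 tags (range 101 to 1028) and a fold enrichment of 5.51 (2.67 to 11.1), against 201 tags and 5.11 for the 48428 distal intervals of the whole list, and 14 of the 27 were above the list's median by either measure. The median fold enrichment of the 10 starts was higher than that of the 27 distal intervals by 1.12 on the log2 scale, and by 2.90 in tags. In each of the 10 windows the start held more tags than every distal interval, from 1.60 times the strongest distal one in CTCF and STAG2 to 11.6 times in PDS5B. By fold enrichment this held in 9 of the 10. The exception was CTCF, whose start had a fold enrichment of 8.51 and whose strongest distal interval had 10.3. The same shares over all protein-coding genes were not computed, so these counts are not read as particular to the 10 genes. Start intervals of protein-coding genes had medians of 994 tags and a fold enrichment of 10.96, also above those of all distal intervals.

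**Figure D5:**
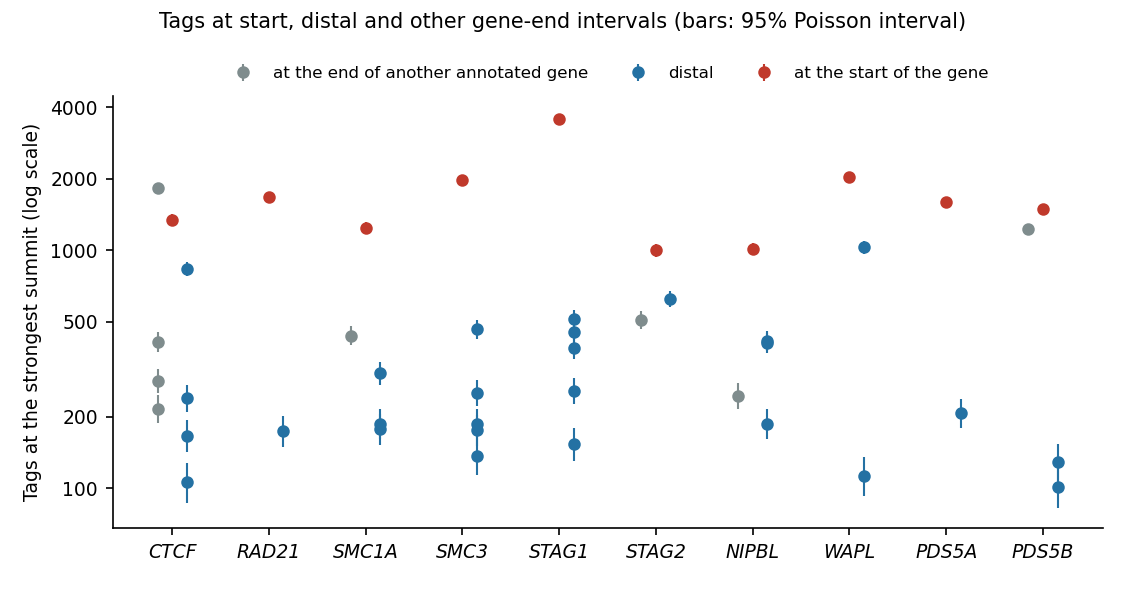
Tags at the strongest summit of each interval (log scale) by gene, with 95% Poisson intervals as bars, which are smaller than the point where not visible. Red points are starts, blue points distal intervals and grey points ends of other genes. Each red point lies above all blue points of its gene, and in CTCF alone a grey point lies above the red one.

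The strongest distal interval was at WAPL. It spanned chr10:86399644-86401432, beyond the far end of the gene and 121.8 kb from its start, with 1028 tags (966 to 1093) and a fold enrichment of 10.4, at percentiles 98.0 and 94.4 of all distal intervals. The second by tags was chr16:67520893-67521860, 41.3 kb upstream of CTCF and inside RIPOR1 and LOC100505942, with 837 tags (781 to 896). The highest fold enrichment of the 27, 11.1 with 513 tags, belonged to chr3:136658829-136660032, inside STAG1 and 92.9 kb from its start. The RefSeq gene table lists outer ends without exons, so whether a distal interval is in an exon or an intron was not analysed here.

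Inside the genes there were 11 distal intervals and outside them 16. STAG1 held 3 inside, with 153, 257 and 513 tags, and had 2 upstream, 40.8 and 50.2 kb away, with 388 and 454 tags. The farther of these (chr3:136801705-136803165) is at the edge of the window, counted through 2 weaker summits that lie inside the limit of 50 kb. The nearest interval left out around STAG1 lay 66.7 kb beyond the gene, with a fold enrichment of 10.3 and 892 tags. NIPBL had 2 distal intervals beside its start, 1289 bp upstream and 2113 bp inside. Their fold enrichments were low, at 2.68 and 2.72, over backgrounds of 154.2 and 149.6 tags. By tags, 415 and 409, they were at percentiles 85.1 and 84.7 of all distal intervals. The remaining one, 177.9 kb inside the gene, had 187 tags at a fold enrichment of 6.02. PDS5A had a single distal interval, 113.3 kb inside the gene, with 207 tags, and both intervals inside PDS5B were weak, with 101 and 129 tags.

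The distal intervals of SMC3 had 136 to 465 tags, the strongest inside the neighbouring gene RBM20 and 76.6 kb from the start. Those of SMC1A had 177, 187 and 304 tags, and the strongest lay 19.0 kb upstream. RAD21 had 1 with 174 tags, 12.9 kb outside the gene on the side of its accessible end. The other 3 distal intervals of CTCF had 106, 166 and 239 tags. The 8 intervals at ends of other genes included 2 that were within the range of the starts by tags. The interval where ACD and PARD6A meet, 98.3 kb from the CTCF start, had 1820 tags (1737 to 1906), more than CTCF itself. The interval at an end of N4BP2L2, 47.6 kb upstream of PDS5B, had a fold enrichment of 16.8 and 1225 tags. By fold enrichment the interval at an end of HSD17B10, 11.7 kb upstream of SMC1A, also reached the range of the starts. It had a fold enrichment of 11.4 but 438 tags.

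Strength at the start and the number of distal intervals showed no steady relation. Across the 10 genes Spearman's rho was 0.05 and Pearson's r 0.06 for fold enrichment, as a description of points that share 1 list, and the sign of rho changed with the window. Across the 10843 genes with a start interval the same rho was -0.23. WAPL and RAD21, with the 2 highest fold enrichments, had 2 and 1 distal intervals, and STAG1 and SMC3 had 5 each. PDS5A paired a start at percentile 79.9 by tags with 1 distal interval. Genes most like the 10 in start fold enrichment, start tags, number of distal intervals and window length were SAXO1, INPP5F and PIK3C2A. Their distances to the medians of the 10 were 0.18, 0.19 and 0.19 in units of the SD over 10843 genes, in the 1 pooled list.

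Relatives of the 10 genes were read in the same way, from lists of related factors. Of the 5 germline forms of these proteins, 4 had an interval at the start, with a median of 289 tags (range 130 to 1292) against 1544 for the 10 genes. CTCFL, the germline paralog of CTCF, had none. The others, named after their values were seen, were REC8 with 130 tags, SMC1B with 177, RAD21L1 with 401 and STAG3 with 1292. By tags STAG3 was thus within the range of the 10 genes (998 to 3561) and the other 3 were below it. By fold enrichment STAG3, at 14.6, and RAD21L1, at 7.48, were within the range of the 10 genes. Ends of other genes beside these starts are not given here, and the signal of a shared interval cannot be divided between neighbours.

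Cohesin loading, acetylation and release factors had a start interval in 7 of the 7 genes with a listed start, with a median fold enrichment of 12.8 and 1092 tags. Condensin and SMC5/6 genes, which encode related ring complexes, had one in 12 of 12, at 12.7 and 1512 tags. Other looping and boundary factors had one in 6 of 6, at 8.95 and 1724 tags. The medians of distal intervals were 2, 2 and 4 for these lists. All are read against the 68.4% of protein-coding genes with a start interval.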

How the data were processed

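Tn5-treated nuclei of 3 biological replicates, 1 group, were profiled by ATAC-seq, per the labels' protocols. The authors deposited 1 pooled list, which the labels name an optimal set by irreproducible discovery rate, in genome build hg38 per the submitters' processing notes. The aligner and peak caller are not given in the sources used here. The deposited fold enrichment is a linear ratio per summit (1.29 to 31.9). The deposited −log10 p is per summit, and each entry has a deposited score between 540 and 1000, in whole numbers.

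Entries sharing both bounds count as 1 interval, represented by the entry with the highest −log10 p. Tag counts were solved from fold enrichment and −log10 p under a Poisson tail with a pseudocount of 1, and fitted every entry within 0.00079 of −log10 p, where the next whole number missed by a median of 0.266. Above a floor of 29.2 tags, 99.8% of backgrounds were multiples of 0.015, as a tag extended to 150 bp gives when averaged across 10 kb, so a background includes the tags of the interval itself. PCR duplicates may remain, and intervals cover counting error only.

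Genes came from RefSeq GRCh38.p14, and starts from its promoter table (15842 of 20037 protein-coding genes, 9 of the 10 members). The first listed start was used, and both outer ends for RAD21. Percentiles count ties at their midpoint. Members and lists were chosen with earlier results of these data known. Genes named are the 10 members, listed genes without a start interval, marker genes, neighbours for location, and the 3 nearest by pattern. The germline relatives with a start interval were named after their values were seen. Other windows, radii, a score threshold, overlap and strength measures were tried. The code was tested on simulated data. Python 3.11.15, numpy 2.4.6, pandas 2.3.3, scipy 1.17.1 and matplotlib 3.10.9 were used.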

Additional observations from a re-analysis of the deposited data

How the results depend on the processing

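An interval was found at the start of all 10 genes under every alternative run: start radii of 500 bp and 2 kb, a score of at least 830, any overlap of 1 bp, and both outer ends. The relation between start strength and distal intervals had no stable sign. Its rho, 0.05 in the report, was -0.32 with a window of 20 kb, -0.47 in gene bodies only, -0.033 at a score of at least 830 and -0.082 by overlap. It was -0.16 with protein-coding ends only and -0.18 counting from the start of each member alone. It was 0.32 within 100 kb, 0.30 by tags and 0.37 beyond 5 kb of the start, a setting added after seeing the data. The cause was not tested.

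The 45 intervals became 74 within 100 kb, 21 in gene bodies and 121 as summit entries, and the median of 2.5 distal intervals became 4.5 within 100 kb (4 for all genes) and 1 in gene bodies (0 for all genes). It fell below that of all genes with protein-coding ends only (2.5 against 3), from the start of each gene alone (3.5 against 4) and by summit entries (3 against 4). It equalled that of all genes, at 2, with a start radius of 2 kb, a score of at least 830 and beyond 5 kb of the start. By gene, SMC3, STAG1 and WAPL moved by over 1.5 times within 20 kb, and CTCF, RAD21, SMC1A and WAPL within 100 kb. In gene bodies only, CTCF, RAD21, SMC1A, SMC3, STAG1 and WAPL did so. Counting from the start of each gene alone, CTCF went from 4 to 8 and STAG2 from 1 to 2. STAG2 also had 2 with protein-coding ends only. WAPL and PDS5B went from 2 to 1 at a score of at least 830, and WAPL did so by overlap. Beyond 5 kb of the start STAG2 went from 1 to 0 and NIPBL from 3 to 1. The start minus distal difference, 1.12 on the log2 scale, was 1.77 with summit entries and 2.90 in tags. The difference of the starts from all genes, 0.13, was 0.64 in tags.

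No paired analysis was possible because every library belongs to a single group, pooled into 1 list, and leaving out a replicate was not an option either. Starts missing from the RefSeq promoter table, and per-replicate variation, limit these results.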
